A study of Rattus norvegicus with 9 samples.

Results

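The genes described here are those of the expression table whose name is Zfp followed by a digit, the mouse naming for zinc finger proteins. There are 80 of them among the 2392 genes of the table, and 2 of the 80 are annotated as pseudogenes (Zfp422-ps and Zfp862-ps). They were measured in 4T1 cells, a mouse mammary carcinoma line, in 9 messenger RNA libraries. The groups were cells with molybdenum disulfide nanoparticles and near-infrared light (MoS2_NIR, n = 3, a state labelled photothermal therapy), cells with the nanoparticles alone (MoS2, n = 3) and cells in medium (Control, n = 3). All were grown in high-glucose DMEM with serum. No library is labelled as light without particles, and dose, light settings and times are not given in the labels. The members were picked by name, but the genes that fall after light were in view when the group was chosen, and the authors had already selected the genes of the table by a rule that is not stated. The MoS2_NIR comparisons are therefore given as descriptions, with calls but without p-values.

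Zinc finger proteins fold small loops around zinc ions, and strings of the C2H2 type of finger let many of them read DNA. In mammals the largest class joins such fingers to a KRAB domain, which recruits the corepressor TRIM28 and, through it, silencing of chromatin. Many KRAB genes lie in clusters of close copies, keep mobile elements and imprinted genes silent, and are transcribed at low levels. The name Zfp also covers proteins outside this class, such as Zfp326, a subunit of a complex that links splicing to RNA polymerase II, and Zfp185, a LIM domain protein of the actin cytoskeleton.

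The values are expression values of unstated unit, recovered from the deposited per-gene scores, with 2 decimals. Whether transcript length was divided out is unknown, so levels of different genes are not compared. The median over all genes of the table ranged from 3.19 to 3.26 in the MoS2_NIR libraries, from 1.97 to 2.07 in MoS2 and from 1.63 to 1.98 in Control, and Pearson's r between libraries of 1 group was 0.975 to 0.984 across tested genes on the log2 (value + 1) scale. The depth of the libraries is unknown. Of the 11 epithelial and 4T1 markers listed, 3 were in the table. Among them Lcn2 was 98.9 ± 8.79 in MoS2_NIR, 233 ± 8.05 in MoS2 and 399 ± 20.2 in Control (SD, n = 3 each). Of 9 fibroblast markers 2 were present, Col1a1 and Postn (Postn at 0.523 ± 0.135 in MoS2_NIR, 2.43 ± 0.613 in MoS2 and 4.23 ± 0.379 in Control), and of the 8 immune and 5 endothelial markers 0 were present. The part of these markers in the results was not tested. In bulk samples fewer cells and less RNA per cell cannot be told apart.

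Most Zfp genes had their highest values in the irradiated libraries. The 3 MoS2_NIR values lay above the 3 Control values in 71 of the 80 genes and below them in 4, against 59.4% and 35.2% of all 2389 genes with values. The groups overlapped in the remaining 5, which were Zfp950, Zfp965, Zfp422-ps, Zfp595 and Zfp93. In 61 of the 80 genes the mean was highest in MoS2_NIR, intermediate in MoS2 and lowest in Control. The share of all genes with that order was not counted, so it is not read as particular to the Zfp genes. The median over the 80 Zfp genes was 3.25, 2.70 and 3.20 in the MoS2_NIR libraries, 1.44, 1.30 and 1.36 in MoS2 and 1.05, 1.07 and 0.93 in Control. The lowest irradiated library thus lay above all 6 others.

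**Figure D1:**
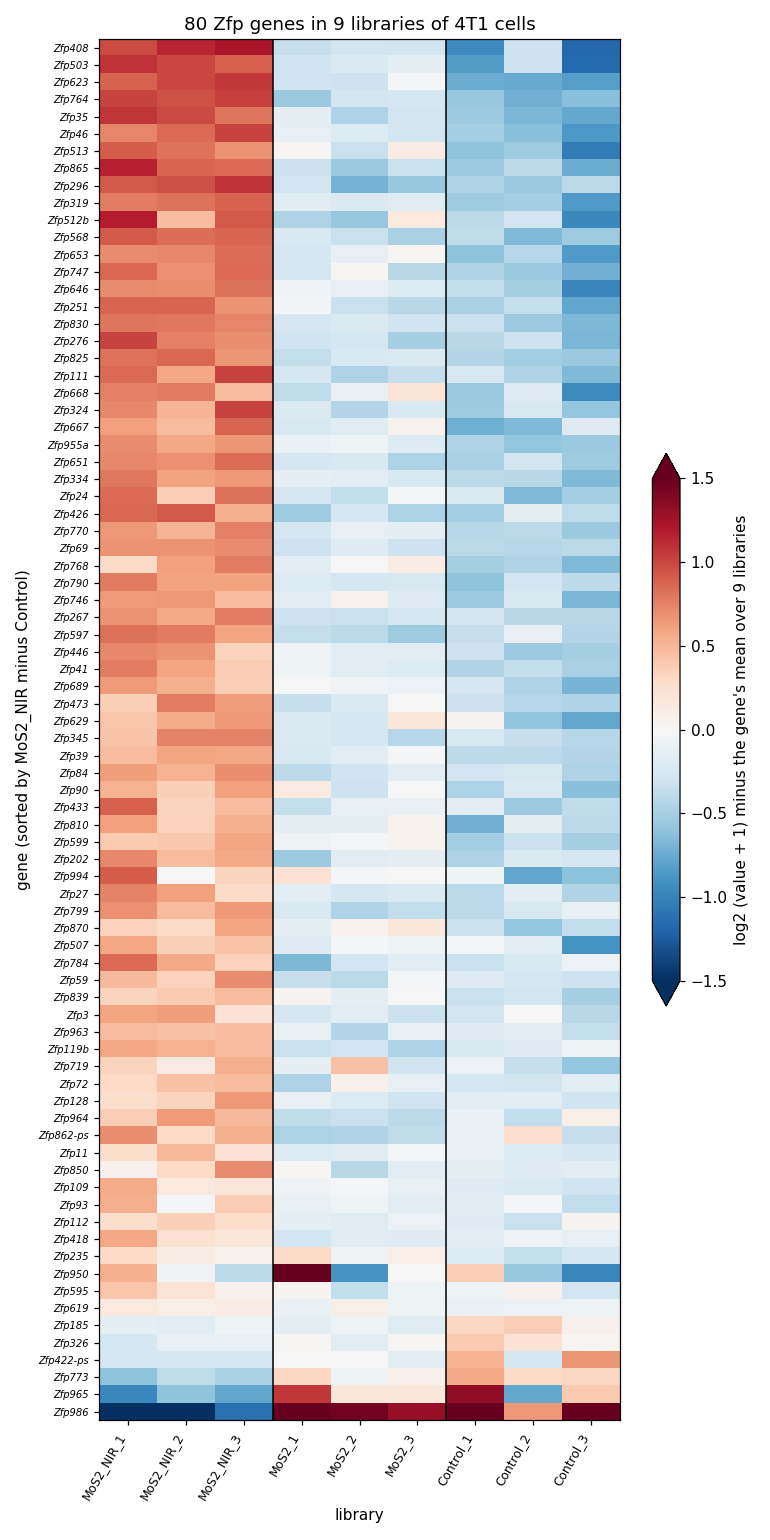
Log2 (value + 1) of each of the 80 Zfp genes (rows, sorted by the MoS2_NIR minus Control difference) in each of the 9 libraries (columns), less the gene's own mean over the 9; colours saturate at 1.5 on either side. The irradiated libraries are red in most rows, the 6 rows at the bottom are the genes with a lower mean in MoS2_NIR than in Control, and Zfp950 stands out for a single MoS2 library.

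Of the 80 genes, 67 reached a value of 1 in 3 or more libraries and were tested with limma together with the rest of the table (1748 genes), and 21 of the 67 passed only through the MoS2_NIR libraries. A gene was called at a Benjamini-Hochberg adjusted p under 0.05. Against Control, 62 Zfp genes were called higher in MoS2_NIR and 3 lower, where 63.5% of all tested genes were called higher and 33.9% lower. Of the 46 Zfp genes that pass without the irradiated libraries, 41 were called higher and 3 lower, against 58.8% and 38.5% of all such genes. Because the light comparisons were in view when the genes were chosen, nothing is read from these shares. The median log2 fold change was 1.04 for the 67 genes and 1.01 for all tested genes. With no filter on low values the medians were 0.97 over the 80 Zfp genes and 0.62 over all genes. After median-ratio scaling, which assumes that most genes did not change, the medians were 0.29 and 0.16. There 32 Zfp genes were called higher and 4 lower, against 34.8% and 36.3% of all tested genes. Without scaling, only 46 of the 1748 tested genes were not called. Most tested genes were thus called with or without this scaling. The table holds only genes that the authors had selected, so whether the assumption of the scaling was met was not tested. Calls lost or reversed after the scaling are given as the effect of a setting, not as corrections. Quantile normalization gave medians of 0.56 and 0.47, with 54 Zfp genes higher and 4 lower, against 57.2% and 35% of all tested genes. As a ratio of group means the median Zfp gene was 2.95 times its Control level, with quartiles of 2.48 and 3.57, and the median of all tested genes was 2.54.

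**Figure D2:**
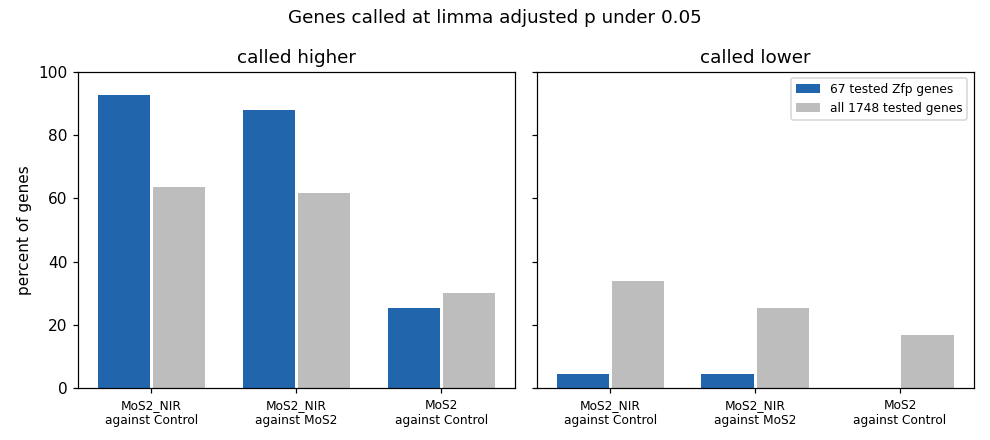
Percent of genes called higher (left) and lower (right) at a limma adjusted p under 0.05 in the 3 comparisons, for the 67 tested Zfp genes (blue) and all 1748 tested genes (grey). Without scaling, 92.5% of Zfp genes were called higher in MoS2_NIR against Control and 4.48% lower; after median-ratio scaling 32 of the 67 were higher and 4 lower.

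The genes that ran against this direction are given first. Zfp986 (ENSMUSG00000078500), a gene with close copies in the mouse genome, had values of 2.19, 1.86 and 15.7 in MoS2_NIR, 117, 97.8 and 88.8 in MoS2 and 104, 55.9 and 115 in Control. All 3 irradiated libraries lay below the 6 others, while MoS2 and Control overlapped. Its log2 fold change was -4.05 (SE 0.68) against Control and -4.25 against MoS2, the lowest among the 67 genes in both comparisons. MoS2_NIR replicate 3 stood apart, and without it the MoS2_NIR mean was 2.03 in place of 6.57 ± 7.87 (SD, n = 3). Reads of close copies may be split or shared, so the level of Zfp986 is uncertain.

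Zfp965 (ENSMUSG00000078896), another gene with close copies, was 0.30, 0.67 and 0.48 in MoS2_NIR, 4.32, 1.85 and 1.83 in MoS2 and 5.39, 0.49 and 2.32 in Control. The irradiated values lay below all MoS2 values but overlapped Control, where replicate 2 was as low as they were. It was called lower against MoS2 (log2 fold change -1.25, SE 0.50) but not against Control (-1.10). The call against MoS2 ended when any 1 of the 3 MoS2 or 3 MoS2_NIR libraries was left out, and without Control replicate 2 the gene was called lower against Control as well (log2 fold change -1.64). It was called lower against Control in 8 of the alternatives in all, among them both scalings.

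Zfp773 (ENSMUSG00000063535) was 0.22, 0.43 and 0.32 in MoS2_NIR, 1.30, 0.76 and 0.95 in MoS2 and 1.75, 1.26 and 1.30 in Control. The irradiated values lay below both other groups without overlap, and the gene was called lower in both light comparisons (log2 fold change -0.88 against Control, SE 0.14, and -0.59 against MoS2). MoS2 replicate 1 reached the Control values.

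Zfp326 (ENSMUSG00000029290), the splicing-linked protein named above, was the third gene called lower against Control. Its values were 16.3, 18.1 and 18.1 in MoS2_NIR, 19.96, 17.5 and 20.1 in MoS2 and 26.3, 23.2 and 20.2 in Control. Both treated groups lay below Control, the MoS2 group by a narrow margin, and they overlapped each other. It was called lower in MoS2_NIR against Control (log2 fold change -0.38, SE 0.11), where median-ratio scaling gave -1.46 and quantile normalization -0.85. It was not called against MoS2 (-0.13), where median-ratio scaling gave -0.89 and quantile normalization gave -0.61, both called lower.

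The remaining genes with a lower mean in MoS2_NIR than in Control were too low to be tested. Zfp185 was 0.38, 0.36 and 0.44 in MoS2_NIR, 0.37, 0.45 and 0.34 in MoS2 and 0.88, 0.96 and 0.59 in Control, so both treated groups lay below Control and overlapped each other. The pseudogene Zfp422-ps was listed at 0 in all 3 MoS2_NIR libraries, at 0.18, 0.18 and 0.06 in MoS2, and at 0.71, 0 and 0.88 in Control. A value of 0 was thus also found in Control. With no filter on low values both were called lower against Control as well, which made 5 of the 80 genes, against 36.6% of all genes.

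**Figure D3:**
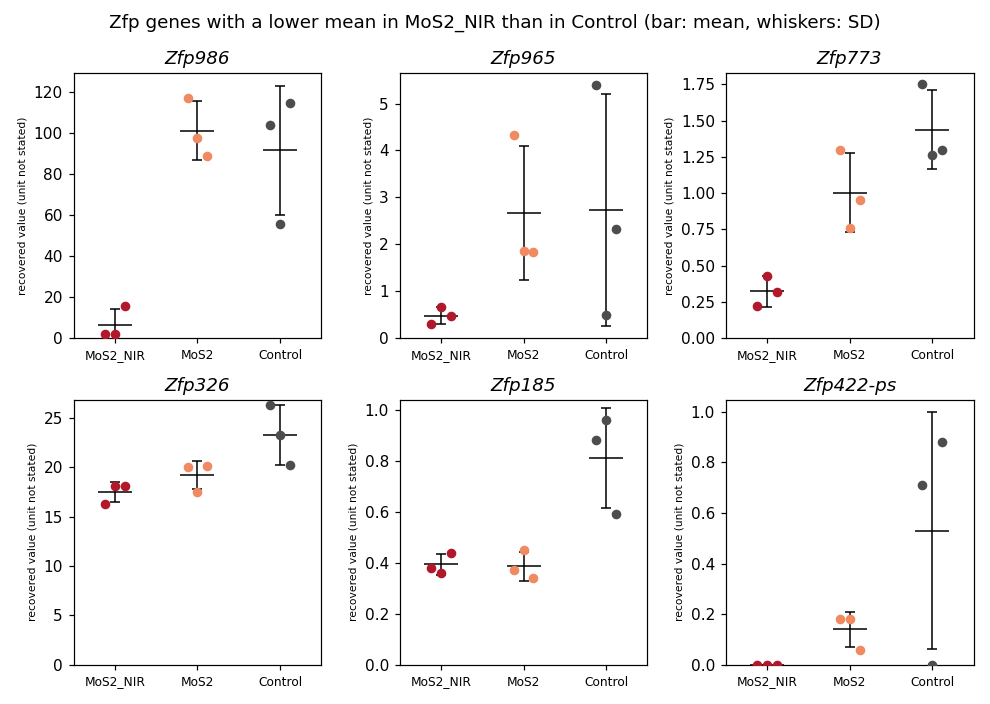
Recovered values (unit not stated, linear axes from 0) of the 6 Zfp genes with a lower mean in MoS2_NIR than in Control; points are libraries, the bar is the mean and whiskers are the SD (n = 3). Zfp986 falls to 6.57 in MoS2_NIR, against 101.3 in MoS2 and 91.6 in Control. Zfp326 is at 17.5 in MoS2_NIR, 19.2 in MoS2 and 23.2 in Control, a log2 fold change of -0.38 against Control that becomes -1.46 after median-ratio scaling; Zfp185 is as low in MoS2 as after light.

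Zfp950, from a family with close copies, had no clear order. It was 3.41, 1.93 and 1.30 in MoS2_NIR, 10.9, 0.65 and 2.05 in MoS2 and 2.92, 1.04 and 0.54 in Control, so the groups overlapped and it was not called in any comparison. Without MoS2 replicate 1 the MoS2 mean was 1.35 in place of 4.55.

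The largest increases after light are described next. Zfp408 (ENSMUSG00000075040), whose human counterpart ZNF408 is linked to disease of the retinal vessels, was 7.82, 8.90 and 9.47 in MoS2_NIR, 2.52, 2.69 and 2.67 in MoS2 and 1.30, 2.59 and 0.98 in Control. The irradiated values lay above all others, while Control replicate 2 reached the MoS2 level. The log2 fold change was 1.94 (SE 0.19) against Control and 1.42 against MoS2, and the value against Control was the highest of the 67 genes.

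Zfp503 (ENSMUSG00000039081), a transcriptional repressor also called Nolz1 that in mouse acts in the developing striatum and in mammary epithelium, was 79.3, 75.3 and 69.8 in MoS2_NIR, 29.8, 31.8 and 33.3 in MoS2 and 20.2, 29.5 and 16.0 in Control. The 3 groups did not overlap, although Control replicate 2 lay just below the lowest MoS2 value. Its log2 fold change was 1.77 (SE 0.18) against Control and 1.22 against MoS2. Zfp623 was 26.1, 28.4 and 29.6 in MoS2_NIR, 10.9, 10.8 and 13.4 in MoS2 and 7.77, 7.68 and 7.26 in Control, again without overlap (log2 fold change 1.76 against Control, SE 0.11).

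Zfp764 was 4.07, 3.88 and 4.13 in MoS2_NIR, 0.71, 1.08 and 1.09 in MoS2 and 0.69, 0.52 and 0.63 in Control, a ratio of means of 6.57 against Control. It passed the filter only through the MoS2_NIR libraries. Its human counterpart ZNF764 has been linked to glucocorticoid receptor action. Zfp35 averaged 5.88 ± 0.654 in MoS2_NIR, 1.89 ± 0.315 in MoS2 and 1.24 ± 0.178 in Control (SD, n = 3 each). Zfp46 averaged 4.94 ± 0.594 in MoS2_NIR, 1.82 ± 0.155 in MoS2 and 1.05 ± 0.253 in Control. In both genes the 3 groups followed each other in that order. Zfp319 averaged 5.57 ± 0.27 in MoS2_NIR, 2.24 ± 0.0436 in MoS2 and 1.40 ± 0.307 in Control. Zfp865 averaged 10.02 ± 1.42 in MoS2_NIR, 3.26 ± 0.372 in MoS2 and 2.83 ± 0.460 in Control, and its MoS2 and Control values overlapped. These 4 genes were called higher, with log2 fold changes against Control of 1.46 to 1.62, and each kept that call after median-ratio scaling.

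Zfp513, whose human counterpart ZNF513 is linked to retinal degeneration, was 19.7, 18.4 and 16.7 in MoS2_NIR, 10.2, 7.78 and 10.9 in MoS2 and 6.24, 6.63 and 4.33 in Control. Its groups formed 3 separate steps, with a log2 fold change of 1.53 against Control (SE 0.16) and 0.87 against MoS2. After median-ratio scaling the second of these was 0.11 and no longer called, and after quantile normalization it was 0.38 and still called.

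**Figure D4:**
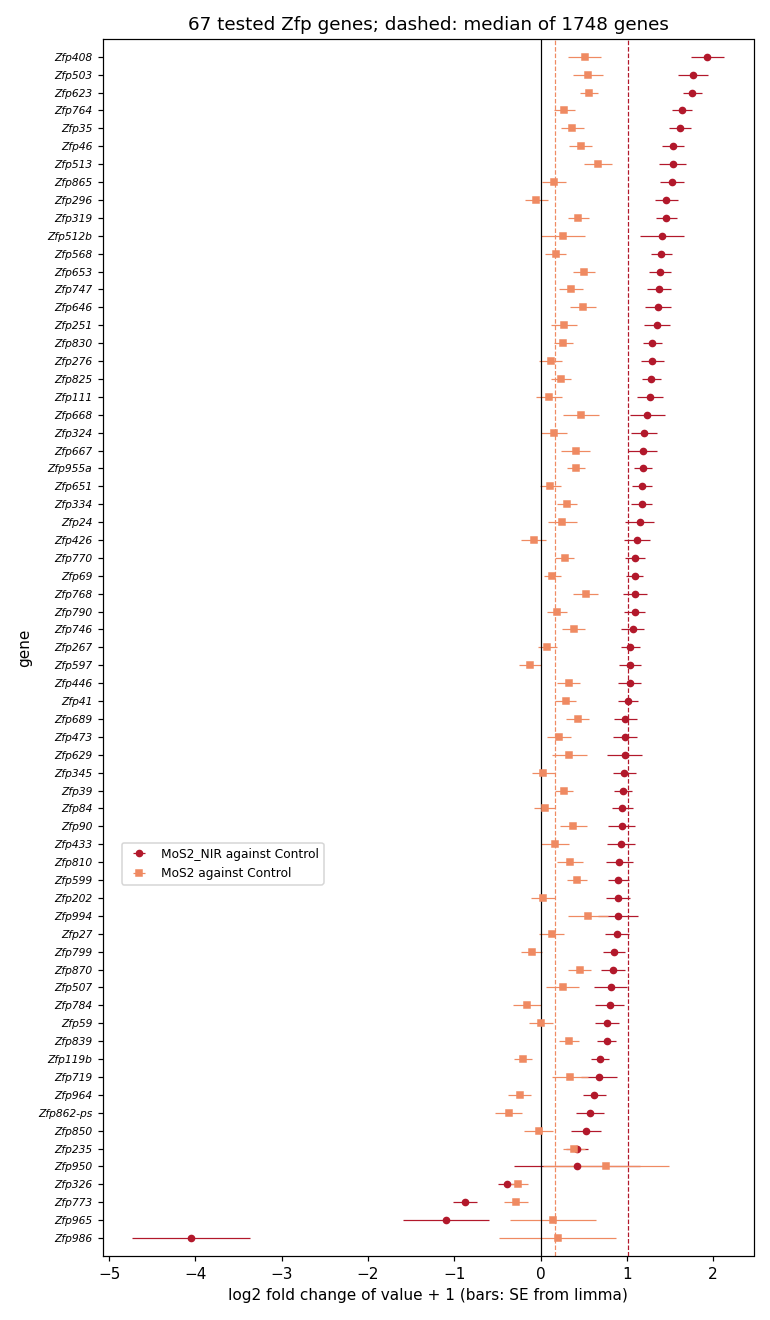
Log2 fold change of value + 1 with its SE from limma for the 67 tested Zfp genes, MoS2_NIR against Control (red circles) and MoS2 against Control (orange squares); dashed lines mark the medians of all 1748 tested genes, 1.01 and 0.17. Both sets use the same Control libraries. The red circles run up to 1.94 at Zfp408, and Zfp986 lies at -4.05; after median-ratio scaling the Zfp median of MoS2_NIR against Control is 0.29 in place of 1.04.

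Members with known roles in development and silencing were among the genes called higher after light. Of 41 Zfp genes on a list of developmental regulators 3 were in the table (Zfp503, Zfp296 and Zfp830). All 3 were called higher against Control, also after both scalings. Without scaling so were 62 of the 67 tested Zfp genes and 63.5% of all tested genes. With median-ratio scaling that share of all tested genes was 34.8%, and with quantile normalization it was 57.2%. The 3 calls are therefore not read as particular to the list. Zfp568 (ENSMUSG00000074221) is a KRAB protein that in the mouse embryo silences a placental promoter of Igf2, and it is the 1 gene of the 13 on the list of retroelement and imprint silencers that was in the table. It was 5.88, 5.51 and 5.69 in MoS2_NIR, 2.12, 1.89 and 1.61 in MoS2 and 1.81, 1.30 and 1.53 in Control (log2 fold change 1.40 against Control, SE 0.12). The irradiated values lay well above the others, and MoS2 overlapped Control. Zfp296, a partner of Klf4 in mouse embryonic stem cells, was 7.95, 8.18 and 8.96 in MoS2_NIR, 2.87, 1.89 and 2.18 in MoS2 and 2.43, 2.21 and 2.57 in Control. Its log2 fold change of 1.51 against MoS2 was the highest of the 67 genes, with no separation between MoS2 and Control. Zfp830 (Omcg1), needed for survival of cells of the early mouse embryo, was 13.6, 13.5 and 13.0 in MoS2_NIR, 6.02, 6.24 and 5.83 in MoS2 and 5.63, 4.73 and 4.26 in Control (log2 fold change 1.30 against Control, SE 0.11).

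Several other genes with a described function went the same way without scaling. Zfp473, which in human cells helps the U7 particle cut histone messenger RNA, averaged 2.14 ± 0.444 in MoS2_NIR, 0.847 ± 0.234 in MoS2 and 0.583 ± 0.0757 in Control. Zfp746 (PARIS), a repressor degraded through parkin, averaged 12.5 ± 0.961, 7.43 ± 0.807 and 5.497 ± 1.07 in the same order of groups. Zfp90, a partner of the repressor REST, averaged 3.43 ± 0.387, 2.02 ± 0.469 and 1.32 ± 0.337, and Zfp24, needed for myelin formation in mice, averaged 8.77 ± 1.72, 4.21 ± 0.660 and 3.39 ± 0.706 (SD, n = 3 each). All 4 were called higher in both light comparisons. After median-ratio scaling only Zfp473 among these 4 kept its call against Control, though it passed the filter through the MoS2_NIR libraries alone. None kept its call against MoS2, where the log2 fold changes of Zfp746 and Zfp90 turned negative. After quantile normalization all 4 kept their calls against Control, and Zfp473 alone kept its call against MoS2.

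**Figure D5:**
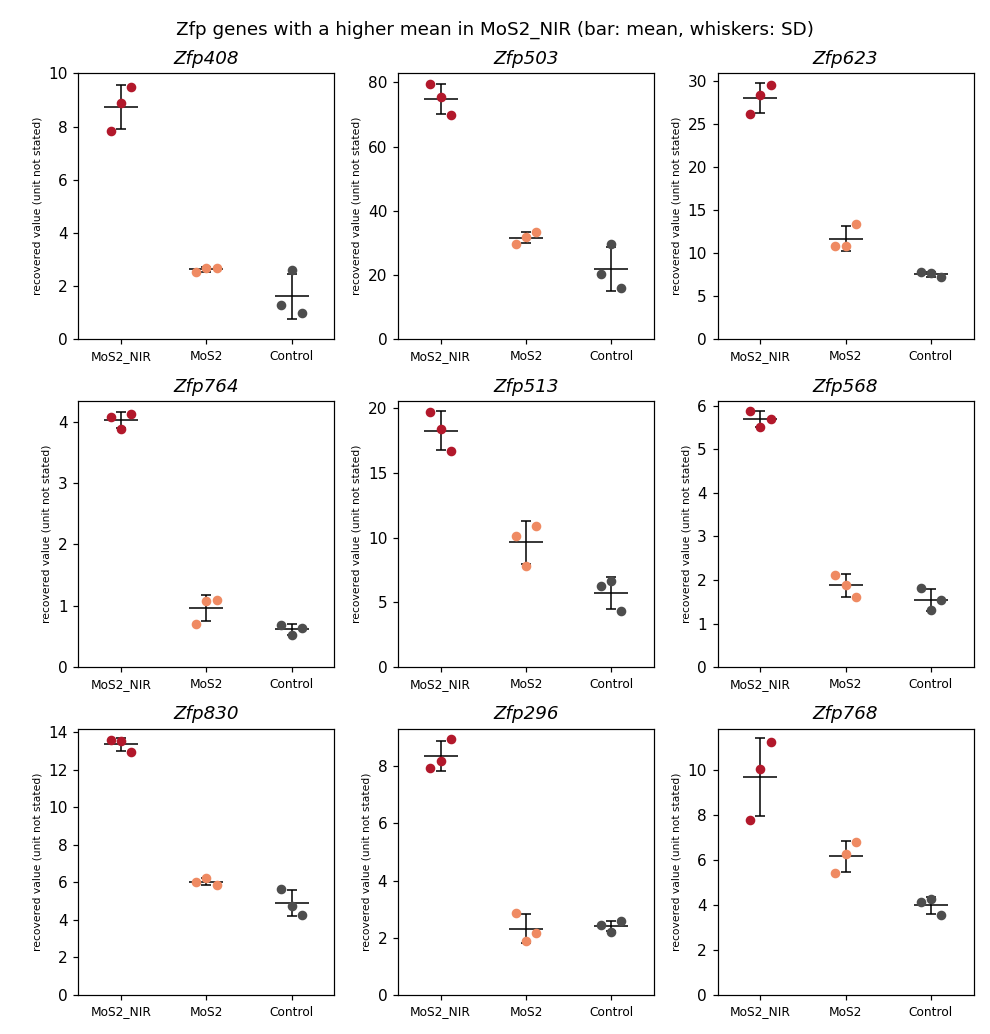
Recovered values (unit not stated, linear axes from 0) of 9 Zfp genes with higher means in MoS2_NIR; points are libraries, the bar is the mean and whiskers are the SD (n = 3). In Zfp296 and Zfp568 the MoS2 points overlap Control and only the irradiated points are high, whereas Zfp513, Zfp623 and Zfp768 form 3 steps; for Zfp768 the MoS2_NIR minus MoS2 difference turns negative after median-ratio scaling (log2 fold change -0.14).

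With particles alone most Zfp genes were not called. The adjusted p-values of this comparison cover only genes that the authors had selected by an unstated rule, so they too are descriptions. Set against Control, 17 of the 67 tested genes were called higher in MoS2 and 0 lower, where limma called 30.1% of all tested genes higher and 16.8% lower. At an unadjusted p under 0.05 the counts were 29 higher and 2 lower, against 35.2% and 20.5% of all tested genes. The median log2 fold change was 0.27 for the Zfp genes and 0.17 for all tested genes. Of the 46 genes that pass without the irradiated libraries 16 were higher and 0 lower, against 32.8% and 19.1% of all such genes. With median-ratio scaling 1 gene, Zfp513, was higher and 4 were lower (Zfp326, Zfp773, Zfp119b and Zfp862-ps), against 13.1% and 31% of all tested genes, and the Zfp median was 0.06. With quantile normalization 18 were higher and 1, Zfp773, was lower, against 26.1% and 19.9% of all tested genes, and the Zfp median was 0.23. The count of 17 was 10 without MoS2 replicate 1 and 11 without MoS2 replicate 3.

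Zfp513 was the 1 gene of the 17 that kept its call in every alternative, with means of 9.62 ± 1.64 in MoS2 and 5.73 ± 1.23 in Control (SD, n = 3 each), a log2 fold change of 0.66 with SE 0.16 (adjusted p = 0.00791 by limma). It was higher in 3 of 3 MoS2 libraries than in any Control library, and its highest limma adjusted p over the 19 alternatives was 0.0326. Zfp623 rose to 11.7 ± 1.44 in MoS2, against 7.57 ± 0.272 in Control (difference on the log2 scale 0.56, SE 0.11, adjusted p = 0.00282 by limma), a call that ended only after median-ratio scaling (limma adjusted p = 0.0552). Zfp768, whose human counterpart acts in cell proliferation downstream of RAS, rose to 6.16 ± 0.686 in MoS2, against 3.98 ± 0.382 in Control (difference on the log2 scale 0.52, SE 0.14, adjusted p = 0.0125 by limma), with values of 7.79, 10.1 and 11.3 after light. Its call ended under both median-ratio scaling and quantile normalization (highest limma adjusted p of 0.153).

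Zfp503 was also called (difference on the log2 scale 0.55, SE 0.18, adjusted p = 0.0256 by limma), but the call ended without Control replicate 1 or 3, without MoS2 replicate 2 or 3 and after median-ratio scaling (highest limma adjusted p of 0.212). Zfp408 (0.51 on the log2 scale, adjusted p = 0.0467 by limma) lost its call in 15 of 19 alternatives, among them the omission of any 1 library other than Control replicate 2. Among the other called genes, Zfp653, a repressor known from work on steroidogenic factor 1, averaged 8.25 ± 0.917 in MoS2 and 5.53 ± 0.941 in Control (limma adjusted p = 0.00946). Zfp955a averaged 3.92 ± 0.210 in MoS2 and 2.70 ± 0.159 in Control (limma adjusted p = 0.00922). Both calls ended only after median-ratio scaling. Of the 17 genes, 7 were called whichever single library was left out. How many of all called genes did so was not counted.

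Zfp235 was the 1 gene called higher in MoS2 but not called from MoS2 to MoS2_NIR, and it is named after its values were seen. It was 1.64, 1.31 and 1.22 in MoS2_NIR, 1.62, 1.07 and 1.30 in MoS2 and 0.85, 0.67 and 0.80 in Control. The 2 groups with particles overlapped, and both lay above Control. In MoS2 against Control it was called higher (0.39 on the log2 scale, SE 0.13, adjusted p = 0.0283 by limma), a call that ended without Control replicate 2, MoS2 replicate 1 or MoS2 replicate 3, or after median-ratio scaling (highest limma adjusted p of 0.14). After median-ratio scaling it was called lower in MoS2_NIR against MoS2.

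In 12 of the 80 genes the mean was lower in MoS2 than in Control and highest in MoS2_NIR. For all genes that share was not counted. The pseudogene Zfp862-ps was 2.37, 1.56 and 2.01 in MoS2_NIR, 0.50, 0.52 and 0.60 in MoS2 and 0.94, 1.48 and 0.64 in Control. Its MoS2 values lay just below Control (-0.37 on the log2 scale, SE 0.16, adjusted p = 0.0788 by limma, not called). The gene was called lower there without Control replicate 3 and after median-ratio scaling. In MoS2_NIR against Control it was called higher, but not after median-ratio scaling (log2 fold change -0.08) or quantile normalization (0.22). Zfp119b averaged 1.61 ± 0.105 in MoS2_NIR, 0.410 ± 0.0889 in MoS2 and 0.620 ± 0.0889 in Control (SD, n = 3 each). Zfp964 was 1.01, 1.43 and 1.18 in MoS2_NIR, 0.20, 0.24 and 0.18 in MoS2 and 0.45, 0.21 and 0.66 in Control, so MoS2 overlapped Control only at Control replicate 2. Neither was called in MoS2 against Control (limma adjusted p = 0.135 and 0.144), but Zfp964 was called lower without Control replicate 2. Zfp784, also with a lower MoS2 mean, was 2.04, 1.49 and 1.14 in MoS2_NIR, 0.06, 0.38 and 0.51 in MoS2 and 0.34, 0.44 and 0.59 in Control, with overlap of the last 2 groups. Zfp862-ps, Zfp119b, Zfp964 and Zfp784 passed the filter only through the MoS2_NIR libraries. Over all 80 genes the 3 MoS2 values lay above the 3 Control values in 29 and below them in 5 (Zfp119b, Zfp862-ps, Zfp326, Zfp185 and Zfp418), against 28.6% and 21.3% of all genes with values. With no filter on low values Zfp185 was called lower in MoS2, 1 of the 80 genes against 16.8% of all genes.

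The step from MoS2 to MoS2_NIR, which adds light to cells that already hold particles, gave 59 genes called higher and 3 lower (Zfp773, Zfp965 and Zfp986), where 61.7% and 25.4% of all tested genes were called. Of the 46 genes that pass without the irradiated libraries 39 were higher and 3 lower, against 57.2% and 28.9% of all such genes. The genes not called were Zfp994, Zfp719, Zfp235, Zfp950 and Zfp326. The median log2 fold change was 0.87 for the Zfp genes and 0.68 for all tested genes. After median-ratio scaling the medians were 0.28 and 0.02, with 32 Zfp genes called higher and 5 lower, against 23.7% and 35% of all tested genes. Quantile normalization gave medians of 0.42 and 0.21. There 42 Zfp genes were called higher and 4 lower, against 674 and 561 of all 1748 tested genes. Over all 80 genes the irradiated values lay above the MoS2 values in 69 and below them in 4, against 57.3% and 23.7% of all genes with values. This step shares its MoS2_NIR libraries with the comparison to Control, so the 2 are not independent.

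Replicates of the tested Zfp genes were closest after light: the median coefficient of variation was 11.6% in MoS2_NIR, 13.9% in MoS2 and 19.7% in Control. Low values make this measure larger, and the mean was under 1 in 13 of the 80 genes in MoS2_NIR, in 31 in MoS2 and in 38 in Control. The 13 genes below the testing limit were Zfp3, Zfp11, Zfp72, Zfp93, Zfp109, Zfp112, Zfp128, Zfp185, Zfp418, Zfp422-ps, Zfp595, Zfp619 and Zfp963. In 11 of them the mean was higher in MoS2_NIR than in Control, and in 9 without overlap, where 48.7% of all untested genes lay above Control without overlap. Zfp41, just above the limit, was 1.98, 1.64 and 1.29 in MoS2_NIR, 0.68, 0.57 and 0.53 in MoS2 and 0.29, 0.36 and 0.25 in Control, in 3 separate steps. It passed the filter only through the MoS2_NIR libraries. Below the limit, Zfp963 was 0.96, 0.92 and 0.95 in MoS2_NIR, 0.31, 0.04 and 0.31 in MoS2 and 0.24, 0.27 and 0.10 in Control, high in the irradiated libraries alone. Zfp119b, Zfp955a, Zfp963 and Zfp964 have close relatives in the mouse genome, so their levels carry the same uncertainty as that of Zfp986.

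Zinc finger genes with other names were counted from a list of prefixes (Zbtb, Zscan, Zkscan, Klf, Egr and the like). Among the 32 present, 29 were tested, and 28 were called higher in MoS2_NIR against Control and 1, Klf10, lower, with a median log2 fold change of 1.30, where all tested genes had 63.5% higher, 33.9% lower and a median of 1.01. Median-ratio scaling left 19 of them higher and 2 lower, with a median of 0.42, against 34.8%, 36.3% and 0.16 for all tested genes. Quantile normalization left 27 higher and 1 lower, with a median of 0.74, against 57.2%, 35% and 0.47. In MoS2 against Control 13 were higher and 0 lower, against 30.1% and 16.8% of all tested genes. After median-ratio scaling the counts were 7 and 1, against 13.1% and 31%. With quantile normalization they were 12 and 0, against 26.1% and 19.9%. Klf10, an early response gene of TGF-beta, averaged 61.9 ± 10.2 in MoS2_NIR, 124 ± 1.34 in MoS2 and 94.9 ± 7.53 in Control. Of 30 genes of the KRAB corepressor machinery 2 were in the table. Morc2a, which compacts chromatin with the HUSH complex, averaged 19.2 ± 2.13 in MoS2_NIR, 11.6 ± 0.403 in MoS2 and 7.70 ± 1.31 in Control, and Dnmt3b, a DNA methyltransferase, averaged 2.11 ± 0.332, 1.26 ± 0.534 and 1.21 ± 0.501. Both were called higher in MoS2_NIR against Control, and neither after median-ratio scaling. After quantile normalization 1 of the 2 was called higher. Trim28 and Setdb1, at the centre of KRAB repression, were not analysed here, nor was any of the 4 Zfp36 genes, which encode messenger RNA decay factors.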

How the data were processed

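Per the labels, polyA RNA of 4T1 cells was sequenced in 9 libraries; groups and replicate numbers come from the sample titles. The organism field names the rat, but the cell line, build mm10 and the Ensembl identifiers are those of the mouse. Libraries were made with a QIAGEN single cell RNA kit, per the labels' protocols. The submitters' processing notes list the tools Bowtie 0.12.9, Cufflinks 2.1.1 and HTSeq without their steps, and strand use is not given in the sources used here. The deposited table holds 1 score per gene and library, standardized by the authors over the 9 libraries (mean 0 and standard deviation 1 in 2391 of 2392 genes). Its genes were selected by an unstated rule.

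The values behind the scores were recovered by searching for 9 values in steps of 0.01 whose ln (value + 1), standardized, gave the deposited scores within 1e-09. A solution was accepted where fewer than 0.001 chance solutions were expected (largest 5.9e-06). Values were recovered for 2389 genes, including all 80 Zfp genes. With simulated scores, 200 of 200 genes came back right and 0 of 40 random rows were accepted. The random rows were searched over a smaller range of values than the data, so they do not test acceptance over the full range.

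Log2 (value + 1) of the 1748 genes that reached 1 in 3 or more libraries was fitted with limma 3.58.1 in R 4.3.3 (trend, robust), with all 9 libraries in 1 model and Benjamini-Hochberg adjustment over the 1748 genes. Fold changes on this scale understate changes of low genes. Libraries were not scaled. Alternatives were the pseudocount, the filter, scaling, the moderation, the libraries fitted, the deposited scores, a replicate block and leaving out each library. Nothing in the labels says that replicates were separate cultures, so the p-values reflect the spread among these libraries, which may be technical.

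Genes named with values were tested members with a lower mean in MoS2_NIR than in Control, the 10 largest called increases against Control, the 5 largest called changes in each direction of the other comparisons, members of lists of known roles, and the 3 highest and 3 lowest tested members by mean, a ranking used to choose names alone. Other members named with values were chosen after their values were seen. The members and lists were chosen with earlier results of these data known. Lists were only counted. Mouse sequences of these genes were not used here.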

Additional observations from a re-analysis of the deposited data

How the results depend on the processing

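Scaling between libraries had the largest effect. Whether the assumption of median-ratio scaling was met was not tested, since the table holds only genes that the authors had selected. Median-ratio scaling moved the count of Zfp genes called in MoS2 against Control to 1 higher and 4 lower (229 and 542 of all genes, in place of 526 and 294), in MoS2_NIR against Control to 32 higher (608 of all genes, in place of 1110), and in MoS2_NIR against MoS2 to 32 higher and 5 lower (415 higher of all genes, in place of 1078; 674 after quantile normalization). It also turned the log2 fold change of Zfp768 in MoS2_NIR against MoS2 to -0.14, which was not called. In MoS2 against Control 1 Zfp gene was lower without a filter (Zfp185), after quantile normalization (Zfp773) and with the deposited scores as they stand, and in MoS2_NIR against Control 5 were lower without a filter. Leaving out single libraries gave 10 to 16 higher and 0 to 2 lower Zfp genes in MoS2 against Control. It gave 51 to 62 higher and 3 to 4 lower in MoS2_NIR against Control. In MoS2_NIR against MoS2 it gave 47 to 60 higher and 2 to 3 lower. Without 1 MoS2_NIR library 57 Zfp genes were tested in place of 67, and the counts called higher after light were lowest there. Of all genes (1613 to 1746 tested), 410 to 518 were higher and 199 to 303 lower in MoS2 against Control. The counts were 964 to 1110 and 543 to 591 in MoS2_NIR against Control, and 917 to 1083 and 396 to 438 in MoS2_NIR against MoS2. Same-numbered libraries did not visibly deviate together (r from -0.08 to 0.10). The labels do not say how replicates were made, and this check cannot exclude pairing by number. With a replicate block the counts of Zfp genes were 18 higher and 0 lower, 62 and 4, and 59 and 3 in the 3 comparisons. The causes of these differences were not tested. Depth is unknown, so the smallest change that low Zfp genes could show is unknown too.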
